A study of Homo sapiens with 6 samples.

Results

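IL32, a cytokine gene, and 9 genes tied to the NF-kB transcription factors were followed in 6 RNA-seq libraries of SW403, an established line of human colon adenocarcinoma cells. The 10 genes are IL32, IL18, CXCL1, CXCL2, CXCL8, TNFAIP3, NFKBIA, NFKB2, BIRC3 and RELB, out of 26490 gene symbols in the count table. They were chosen by name after IL32 had been seen to rise in this same comparison, so their own differences between the groups are given as a description. No p-value is printed for them, and how many pass the threshold of the fit is stated only beside the same share for all genes, with nothing read from it. The control group held 3 libraries of cells with normal IRS2 expression, whose genotype is given as WT and whose descriptions carry the letters NS. The other 3 libraries came from cells with IRS2 knocked down, the gene of insulin receptor substrate 2, and their descriptions carry the letters KO. All cells grew for 24 h in DMEM with 10% fetal bovine serum and received no treatment. The labels number the libraries as biological replicates but do not state how IRS2 was lowered or whether replicates are independent lines. Errors and p-values here therefore measure the spread between these cultures, which may be technical.

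NF-kB is a family of dimeric transcription factors built from RELA, REL, RELB and the products of NFKB1 and NFKB2. In the canonical arm, receptors of the TNF and IL-1 families activate a kinase complex that removes the inhibitor encoded by NFKBIA, which frees RELA-containing dimers. In the non-canonical arm, the kinase encoded by MAP3K14, held down by TRAF3 and the BIRC2 and BIRC3 proteins, triggers processing of the NFKB2 product into a partner of RELB. NFKBIA, TNFAIP3, NFKB2, RELB and BIRC3 are themselves known NF-kB targets, and intestinal epithelial cells use the pathway to make chemokines such as those of CXCL1, CXCL2 and CXCL8. IL32 encodes an intracellular and secreted cytokine found in T cells, natural killer cells and epithelium, whose expression is known to respond to TNF.

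The control libraries held 11816973 to 12585013 counts and the knockdown libraries 14329348 to 18114656, so each knockdown library was deeper than each control library. IRS2 was at 32.4, 34.8 and 32.2 CPM (counts scaled to a library total of 1000000) in control and 13.0, 12.3 and 11.9 CPM in knockdown, a log2 fold change of -1.39 ± 0.07 (SE; edgeR quasi-likelihood adjusted p 3.12e-11). Of 12 colon epithelium markers, 6 had enough counts to be tested, among them KRT8, KRT18, KRT19, EPCAM and CDX2. The other 6, with CDH1, KRT20, CDH17, LGALS4, GPA33 and CDX1, had at most 19 counts over all libraries, and KRT20 and CDX1 were at 0. The epithelium list summed to 2537 to 2637 CPM in control and 2364 to 2457 CPM in knockdown, with KRT19 at a log2 fold change of -0.47 ± 0.04, EPCAM at -0.21 ± 0.06 and CDX2 at 0.14 ± 0.04 (SE; edgeR adjusted p 4.35e-08, 0.00581 and 0.0148). KRT8, KRT18 and VIL1 were not called. The 16 leukocyte markers summed to 2.95 to 4.40 CPM in control and 3.75 to 3.98 CPM in knockdown, with CD3D, MS4A1 and TYROBP at 0. Stromal and endothelial markers stood apart in 1 library. They summed to 9.31 to 28.1 CPM in control, where replicate 1 had 86 COL1A2 counts against 11 and 3, and to 6.39 to 7.95 CPM in knockdown. Of the 3 tested stromal markers, COL1A1 and COL3A1 were called lower in knockdown (edgeR adjusted p 0.00290 and 0.0136) and PDGFRB was not called. The part of these markers in the differences below was not tested. With control replicate 1 left out, the log2 fold change was 2.05 for IL32 and 1.82 for BIRC3, and the other control libraries also had higher stromal sums than the knockdown libraries. In bulk RNA, fewer cells of a kind and less RNA per cell cannot be told apart.

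IL32 had the largest fitted log2 fold change of the members that were tested. It lies on chromosome 16 (GRCh37, 3115298 to 3132193, plus strand), and its canonical transcript has 7 exons and 818 nt. Its level was 1.99, 3.03 and 2.03 CPM in the control libraries and 9.77, 9.96 and 11.2 CPM in the knockdown libraries, from 24 to 38 counts against 140 to 203. Every knockdown library was above every control library, and control replicate 2 was the nearest to them. The means were 2.35 ± 0.587 and 10.3 ± 0.780 CPM (SD, n = 3 each), and the log2 fold change was 2.16 ± 0.16 (SE), a 4.47-fold difference. By size of fitted rise IL32 ranked 7 among the 13832 genes with enough counts to be tested. Without control replicate 3 the log2 fold change was 2.07 for IL32 and 2.10 for BIRC3. IL18 (GRCh37 chr11:112013976-112034819, minus strand) is the other interleukin gene of the set and encodes a cytokine that epithelial cells store as a precursor. It had 0, 1 and 1 counts in control and 0 in each knockdown library, which allows up to 3 counts over that group, or 0.0606 CPM. At this depth no difference in IL18 was detectable.

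**Figure D1:**
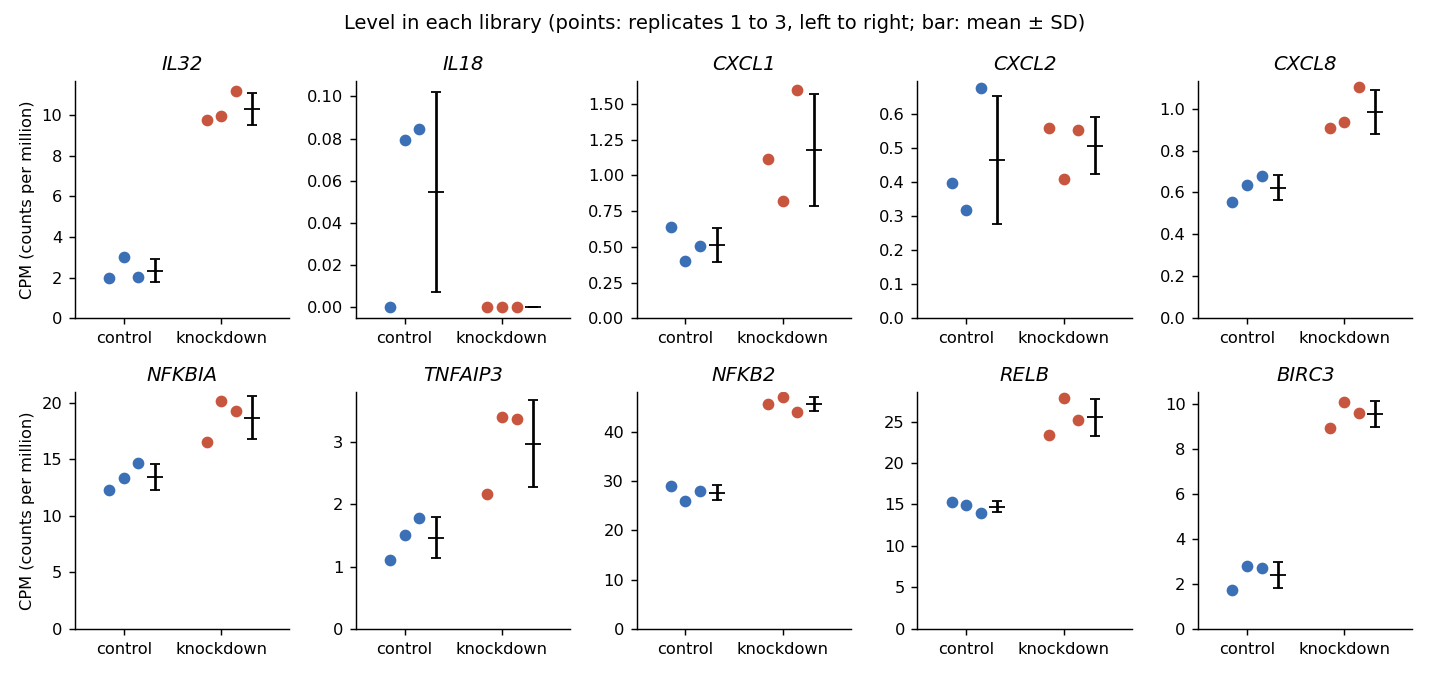
CPM of each of the 10 genes in the 3 control (blue) and 3 knockdown (red) libraries, 1 panel per gene with its own axis in CPM; points are replicates 1 to 3 and bars are mean ± SD. IL32 and BIRC3 go from under 3.1 CPM to above 8.9 CPM, while CXCL2 overlaps and IL18 has at most 1 count in a library.

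Promoter sequence is shown because the set was drawn up to ask whether the rise of IL32 is one of several among genes that NF-kB is known to control. The RefSeq promoter table (GRCh38.p14) had entries for 8 of the 10 genes, in 11 windows, since IL32 and NFKB2 have more than 1 start. The 250 bases before each start were searched on both strands for exact matches to the 10-base NF-kB consensus. A match was found in 8 of the 11 windows and in 7 of the 8 genes, against 9.96% of all 35116 windows of that length. These genes were chosen as NF-kB genes, so the share describes them and supports nothing further. CXCL8 had no exact match in its window. That window does hold tggaatttcc, which differs by 1 base from GGGAATTTCC, a match in CXCL1 and CXCL2, so a near match was missed. The windows of IL32 (chr16:3065153-3065402, plus strand), BIRC3 (chr11:102317234-102317483, plus strand), TNFAIP3 (chr6:137867009-137867258, plus strand) and NFKBIA (chr14:35404750-35404999, minus strand) follow, 5′ to 3′ along the gene, with the matched bases in capitals.
IL32: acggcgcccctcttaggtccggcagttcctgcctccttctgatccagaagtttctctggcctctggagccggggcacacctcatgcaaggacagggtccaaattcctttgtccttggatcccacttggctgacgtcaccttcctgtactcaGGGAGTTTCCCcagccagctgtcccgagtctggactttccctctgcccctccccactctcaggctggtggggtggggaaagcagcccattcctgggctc
BIRC3: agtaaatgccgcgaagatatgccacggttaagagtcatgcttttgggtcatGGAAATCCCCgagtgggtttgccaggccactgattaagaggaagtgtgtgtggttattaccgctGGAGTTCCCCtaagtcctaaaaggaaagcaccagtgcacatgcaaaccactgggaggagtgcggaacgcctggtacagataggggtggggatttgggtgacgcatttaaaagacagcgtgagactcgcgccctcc
TNFAIP3: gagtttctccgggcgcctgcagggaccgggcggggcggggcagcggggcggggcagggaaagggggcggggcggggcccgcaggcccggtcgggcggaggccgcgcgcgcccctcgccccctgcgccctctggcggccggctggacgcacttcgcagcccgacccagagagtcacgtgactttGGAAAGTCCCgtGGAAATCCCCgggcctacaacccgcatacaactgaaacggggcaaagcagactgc
NFKBIA: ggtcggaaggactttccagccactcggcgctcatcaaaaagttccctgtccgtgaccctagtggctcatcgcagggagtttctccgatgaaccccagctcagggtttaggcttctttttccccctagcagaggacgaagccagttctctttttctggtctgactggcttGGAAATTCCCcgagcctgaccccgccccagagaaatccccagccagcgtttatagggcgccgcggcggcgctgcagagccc

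In the IL32 window 2 overlapping matches, 1 on each strand, begin 99 and 98 bases before the start, and the window of the other IL32 start had none. BIRC3 held 2 matches, which begin 199 and 135 bases before its start. TNFAIP3 held 2, at 67 and 55 bases, and NFKBIA 1, at 81 bases. CXCL1 and CXCL2 shared the same match, GGGAATTTCC, at 79 and 78 bases. NFKB2 held 5 matches over its windows, among them GGGACTTTCC at 21 bases before 1 of its starts. A match is a stretch of letters and not a measured binding site.

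Of the 10 genes, 8 passed the filter on low counts, 7 of them were called higher in knockdown and CXCL8 was not called; the median log2 fold change over the 8 was 0.95. A gene is called where its Benjamini-Hochberg adjusted p, from edgeR's quasi-likelihood fit of the whole table, lies below 0.05. This rule called 38.5% of all tested genes, 19.3% higher and 19.2% lower, and the median over all tested genes was 0.00. The groups did not overlap, with knockdown higher, in 8 of the 8, against 19.6% of all tested genes. The genes were chosen with this comparison in view, and CXCL1 and CXCL8 passed the filter only through the knockdown libraries, so nothing is read from these counts. The 8 fitted log2 fold changes ran from 0.51 to 2.16.

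The 3 CXC chemokine genes encode attractants of neutrophils and lie close together on chromosome 4. CXCL1 (chr4:74735110-74737025, plus strand, GRCh37 here and for the genes that follow) was at 0.636, 0.398 and 0.508 CPM in control and 1.12, 0.820 and 1.60 CPM in knockdown, from 5 to 8 and 14 to 29 counts. The groups did not overlap, and knockdown replicate 3 was well above the other knockdown libraries. Its log2 fold change was 1.23 ± 0.38 (SE). It was 1.08 without control replicate 2 and 0.91 without knockdown replicate 3, and both of these fits, with the Wald test of DESeq2 (1.24), leave CXCL1 out of that number.

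CXCL8 (chr4:74606236-74609433, plus strand) encodes interleukin 8. Its level was 0.556, 0.637 and 0.677 CPM in control and 0.907, 0.938 and 1.10 CPM in knockdown, from 7 to 8 and 13 to 20 counts. The groups did not overlap, and the log2 fold change was 0.69 ± 0.34 (SE). CXCL2 (chr4:74962757-74964913, minus strand) was not tested, with 4 to 8 counts in control and 7 to 10 in knockdown, and its groups overlapped at 0.464 ± 0.188 and 0.507 ± 0.0838 CPM (SD, n = 3 each). CXCL3, a close copy of CXCL1 and CXCL2 and no member of the set, was read for that reason and had a log2 fold change of -0.13 ± 0.30 (SE; edgeR adjusted p 0.771). The sources do not say how reads shared by these near-identical genes were assigned, which leaves the values of CXCL1 and CXCL2 uncertain.

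Both inhibitors of the canonical arm were higher in knockdown. NFKBIA (chr14:35870285-35873955, minus strand), which encodes the inhibitor IkB-alpha, was at 12.3, 13.3 and 14.6 CPM in control and 16.5, 20.2 and 19.3 CPM in knockdown. The groups did not overlap, and knockdown replicate 1 was the closest to control. The log2 fold change of NFKBIA was 0.51 ± 0.09 (SE), the smallest among the 8. TNFAIP3 (chr6:138188351-138204451, plus strand) encodes A20, a ubiquitin-editing enzyme that ends TNF signalling. It was at 1.11, 1.51 and 1.78 CPM in control and 2.16, 3.40 and 3.37 CPM in knockdown. Again no library of a group reached the other group, and knockdown replicate 1 was the lowest of its group. TNFAIP3 had a log2 fold change of 1.07 ± 0.25 (SE). The antisense gene WAKMAR2, which overlaps TNFAIP3, had at most 5 counts in a library.

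The 3 genes of the non-canonical arm were higher too, BIRC3 by the most. BIRC3 (chr11:102188215-102210134, plus strand) encodes a ubiquitin ligase of the inhibitor-of-apoptosis family. Its level was 1.75, 2.79 and 2.71 CPM in control and 8.93, 10.1 and 9.61 CPM in knockdown. The means of BIRC3 were 2.41 ± 0.578 and 9.54 ± 0.576 CPM (SD, n = 3 each), and its log2 fold change of 2.01 ± 0.16 (SE), or 4.04-fold, ranked 9 of all tested genes. NFKB2 (chr10:104153867-104162281, plus strand) was at 29.0, 26.0 and 28.0 CPM in control and 45.6, 47.0 and 44.1 CPM in knockdown, a log2 fold change of 0.75 ± 0.06 (SE). The libraries of a group lay close together for this gene, and the gap between the groups was wider than either spread. RELB (chr19:45504719-45541450, plus strand) was at 15.3, 14.97 and 14.0 CPM in control and 23.4, 27.9 and 25.2 CPM in knockdown, a log2 fold change of 0.82 ± 0.08 (SE). BIRC3 overlaps an unnamed antisense RNA gene in the GENCODE annotation, as IL32 does, and without a stated strand setting reads of such pairs cannot be told apart.

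Per kilobase of canonical transcript, the order of levels differed between the groups. In control, NFKB2 (9.17 CPM per kb) and NFKBIA (8.61) led with overlapping ranges of mean ± SD, RELB followed at 6.52 and IL32 at 2.87. CXCL1, CXCL2, CXCL8, BIRC3 and TNFAIP3 came next between 0.315 and 0.438 CPM per kb, each with a range of mean ± SD that overlapped that of its neighbour in the order. In knockdown NFKB2 stood alone at 15.1 CPM per kb. IL32, NFKBIA and RELB followed at 12.6, 11.97 and 11.3 CPM per kb, with overlapping ranges between neighbours. BIRC3 then headed the low genes at 1.39 CPM per kb, followed by CXCL1, TNFAIP3 (0.638) and CXCL8 (0.599), again with ranges of mean ± SD that overlapped between neighbours. IL18 was last in both groups.

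Libraries within the knockdown group differed in the same direction for several of the genes. Knockdown replicate 1 was the lowest of its group in 6 of the 8 tested members and the highest in 0. Control replicate 1 was the lowest of its group in 5 of 8 and the highest in 3. These are counts over genes that share the same libraries, and no test was made of them. The same count was not made over all tested genes, so the order cannot be called particular to the members. Knockdown replicate 1 was also the shallowest knockdown library; the part of depth in this order was not tested. With every library thinned to the smallest total, the log2 fold change was 2.18 for IL32, 2.01 for BIRC3 and 0.77 for NFKB2. It was 0.80 for RELB, 0.47 for NFKBIA and 1.03 for TNFAIP3, and CXCL1 and CXCL8 then had too few counts to be tested.

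**Figure D2:**
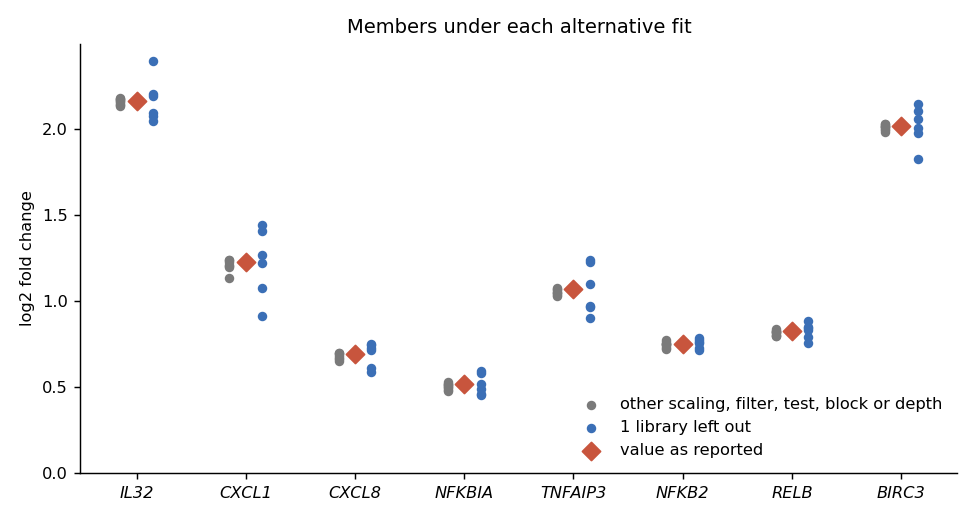
Log2 fold change (y axis, knockdown against control) of the 8 tested members as reported (diamond), under other scalings, filters, tests, the replicate block or thinned counts (grey) and with 1 library left out (blue). All values stay above 0; IL32 runs from 2.05 to 2.40 and CXCL1 from 0.91 to 1.44.

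The profile nearest to that of IL32 was sought among the 11579 other tested genes whose mean count reached 50. Likeness was the root mean square difference of gene-centred log2 CPM over the 6 libraries, which share the same 2 groups, so a small value mainly means a like difference between them. The nearest 5 were CACNA1E (0.16), BIRC3 (0.20), MYO1F (0.26), SMCO2 (0.29) and EDAR (0.30). CACNA1E, a voltage-gated calcium channel gene, went from 2.40 ± 0.296 to 10.6 ± 0.644 CPM (SD, n = 3 each). MYO1F, an unconventional myosin gene, went from 2.57 ± 0.189 to 9.89 ± 0.323 CPM (SD, n = 3 each). EDAR encodes the ectodysplasin receptor, a TNF receptor family member known to activate NF-kB. EDAR was at 25.7, 26.0 and 23.1 CPM in control and 75.4, 77.3 and 75.0 CPM in knockdown, a log2 fold change of 1.63 ± 0.05 (SE). Of the other members, RELB ranked 50, NFKB2 77 and NFKBIA 287 in likeness to IL32, at 0.69, 0.73 and 0.84. TNFAIP3, CXCL1 and CXCL8 had too few counts to be ranked.

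The genes beside IL32 on chromosome 16 lay far below it in difference, between -0.24 and 0.08 on the log2 scale. Of the 5 genes listed on each side, 6 could be tested. Of the 6, 0 were called by edgeR's quasi-likelihood test, beside 38.5% of all tested genes, and 1 had an unadjusted p under 0.05. The Wald test of DESeq2 also called 0, beside 3890 of all 13832 tested genes. With so few genes tested, nothing is read from these counts. MMP25, 4.6 kb away, had a log2 fold change of -0.16 ± 0.37 (SE; edgeR adjusted p 0.772). ZNF205, 30.4 kb away, was at -0.24 ± 0.10 (SE; edgeR adjusted p 0.0567), and it was called lower in 5 of 15 alternative fits, among them those without control replicate 1 (-0.31) and without knockdown replicate 3 (-0.33). TNFRSF12A, the gene of the TWEAK receptor, which signals to the non-canonical arm, lies 42.9 kb away. Its log2 fold change was 0.06 ± 0.03 (SE; edgeR adjusted p 0.220). BICDL2, ZSCAN10, CASP16P and OR1F1 had too few counts.

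**Figure D3:**
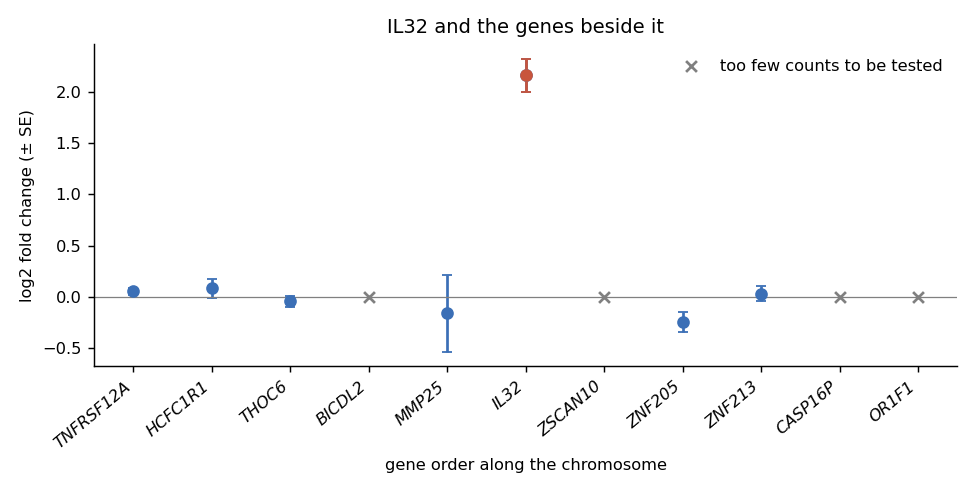
Log2 fold change ± SE (y axis) of IL32 (red) and of the 5 genes on each side in their order along the chromosome (x axis, not to distance); crosses at 0 mark genes with too few counts to be tested and carry no value. IL32 is at 2.16 and the 6 tested neighbours lie between -0.24 and 0.08.

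A list of 50 other NF-kB target genes, without the members, was then read in the same fit. It was written from general knowledge, but with earlier results of these data known. Most of its cytokines and chemokines were hardly present, and 23 of the 50 were not tested, with IL6, IL1A, TNF, CXCL10 and CCL2 at 3 counts or fewer in each library. Of the 27 tested, 11 were called higher and 1 lower, 40.7% and 3.70% beside 19.3% and 19.2% of all tested genes. The median log2 fold change of the 27 was 0.15. The 11 include CCL20, which passed the low-count filter only through the knockdown libraries, so these shares are given as a description. ICAM1, the gene of an adhesion protein that binds leukocytes, was at 6.04, 7.96 and 5.67 CPM in control and 16.7, 14.6 and 14.4 CPM in knockdown. It rose by a log2 fold change of 1.24 ± 0.12 (SE; edgeR adjusted p 1.32e-07). TNFAIP2 rose by 0.53 ± 0.06, TNIP1 by 0.30 ± 0.04 and NFKB1 by 0.27 ± 0.05 (log2, SE), with edgeR adjusted p-values of 4.22e-07, 6.33e-06 and 0.000104. The gene that fell was IFNGR2, an interferon gamma receptor chain, by 0.44 on the log2 scale (SE 0.07, edgeR adjusted p 4.17e-05).

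Not all classical targets moved. SOD2, a mitochondrial superoxide dismutase gene often used as an NF-kB readout, had a log2 fold change of -0.03 ± 0.04 (SE; edgeR adjusted p 0.659). NFKBIZ was at -0.06 ± 0.24 and TRAF1 at -0.05 ± 0.26 (log2, SE), with edgeR adjusted p-values of 0.859 and 0.900, with 16 to 39 counts per library. CCL20, a chemokine gene of gut epithelium, had 0, 4 and 1 counts in control and 16, 14 and 23 in knockdown. Its fitted log2 fold change was 2.94 ± 0.57 (SE; edgeR adjusted p 0.000431). It passed the low-count filter only through the knockdown libraries. CCL20, SOD2, NFKBIZ and TRAF1, and the subunit gene REL, were picked after their values were seen.

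**Figure D4:**
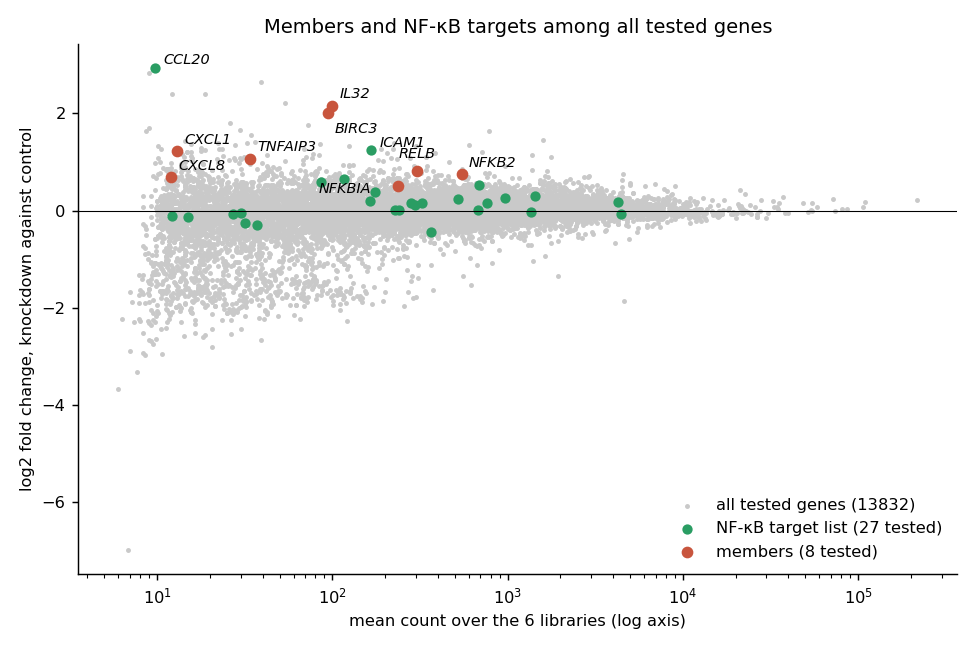
Log2 fold change (y axis) against mean count over the 6 libraries (x axis, log scale) for the 13832 tested genes (grey), the 27 tested genes of the NF-kB target list (green) and the 8 tested members (red). The members lie between 0.51 and 2.16, and the list spreads from -0.44 (IFNGR2) to 2.94 (CCL20, with few counts).

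Among the other subunits and IkB proteins, 4 of 8 were called higher, beside 19.3% of all tested genes, and the other 4 were not called. NFKB1 is counted here and in the target list above, so the shares of the 2 lists are not separate results. BCL3, an atypical IkB protein gene, rose from 4.72 ± 0.664 to 6.91 ± 0.254 CPM (SD, n = 3 each; edgeR adjusted p 0.00310). NFKB1 rose as given above, and NFKBIE, the gene of IkB-epsilon, by 0.38 ± 0.11 (log2, SE; edgeR adjusted p 0.00858). NFKBIE was not called without control replicate 2 (log2 fold change 0.31, edgeR adjusted p 0.0547) or without knockdown replicate 2 (0.33, 0.0506). RELA was called at 0.12 ± 0.04 (log2, SE; edgeR adjusted p 0.0338), but lost the call in 9 of 15 alternative fits. Those included library size alone (0.09) and leaving out control replicate 1 (0.10), control replicate 3 (0.13), knockdown replicate 2 (0.12) or knockdown replicate 3 (0.10). REL was at 0.00 ± 0.12 (log2, SE; edgeR adjusted p 0.984).

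The 29 genes that carry the signal from receptors to NF-kB were called in both directions or not at all. In that list 8 were called higher and 3 lower, 27.6% and 10.3% of the tested genes beside 19.3% and 19.2% of all tested genes, 18 were not called, and the median difference was 0.04 on the log2 scale. MALT1 and CARD10, parts of a scaffold that activates the IkB kinases, rose by 0.33 ± 0.05 and 0.38 ± 0.06 (log2, SE), with edgeR adjusted p-values of 1.75e-05 and 6.89e-05. BIRC2, the neighbour and close relative of BIRC3, rose by 0.32 ± 0.05 and the kinase gene RIPK1 by 0.29 ± 0.06 (log2, SE), with edgeR adjusted p-values of 7.45e-05 and 0.000388. The genes that fell were MAP3K7, which encodes the kinase TAK1, at -0.22 ± 0.05, and the adaptor genes TRAF6 at -0.26 ± 0.08 and TRADD at -0.37 ± 0.12 (log2, SE). Their edgeR adjusted p-values were 0.00232, 0.0133 and 0.0238. TRAF6 was not called without control replicate 2 (-0.23) or control replicate 3 (-0.21). It was also not called with thinned counts (-0.20) or by the Wald test of DESeq2 (-0.25). TRADD was not called without control replicate 1 (-0.36), control replicate 3 (-0.33) or knockdown replicate 3 (-0.26), or by the Wald test of DESeq2 (-0.37). The kinase gene of the non-canonical arm, MAP3K14, was at 0.26 ± 0.09, and its brake TRAF3 at 0.17 ± 0.05 (log2, SE). Their edgeR adjusted p-values were 0.0272 and 0.00775. The groups of TRAF3 overlapped, with control replicate 3 at 87.6 CPM and knockdown replicate 3 at 86.0 CPM. Both genes were picked for their role, outside the naming rule, and their calls under the alternative fits are not given.

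Among 14 other negative regulators, 12 could be tested. Of the 12, 5 were called higher, 41.7% beside 19.3% of all tested genes, and 7 were not called. NLRC5 had the largest difference of these, from 5.17 ± 0.322 to 7.80 ± 0.859 CPM (n = 3 each, SD). Its edgeR adjusted p was 0.00110 at a log2 fold change of 0.63 ± 0.14 (SE). It is also known as an activator of MHC class I genes. TNIP1 and TNIP2, partners of A20, rose by 0.30 ± 0.04 and 0.23 ± 0.06 (log2, SE), the second with an edgeR adjusted p of 0.00306. TNIP1 is also counted in the target list above. ITCH rose by 0.13 ± 0.04 (log2, SE; edgeR adjusted p 0.0161), a call that was lost without control replicate 1 (0.10) or knockdown replicate 2 (0.12) and with library size alone (0.10).

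Ligands and receptors around the pathway were mixed. In the list of CXC chemokines and receptors, 3 of 16 genes could be tested. CXCL16, a membrane-bound chemokine gene, rose from 9.46, 8.20 and 8.29 CPM to 17.0, 17.9 and 16.7 CPM (log2 fold change 1.02 ± 0.09 SE, edgeR adjusted p 6.21e-08). CXCR4, the receptor of CXCL12, fell by 0.59 on the log2 scale (SE 0.05, edgeR adjusted p 7.99e-08). CXCR1 and CXCR2, the receptors of the chemokines encoded by CXCL1, CXCL2 and CXCL8, had 0 counts in every library.

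In the TNF family list 15 of 24 genes were tested, with a median log2 fold change of 0.17. Of the 15, 8 were called higher and 2 lower, 53.3% and 13.3% beside 19.3% and 19.2% of all tested genes. EDAR had the largest rise of the list. The TNF receptor genes TNFRSF1A and TNFRSF1B rose by 0.27 ± 0.04 and 0.23 ± 0.03, and TNFRSF10B, a TRAIL receptor gene, by 0.38 ± 0.04 (log2, SE), with edgeR adjusted p-values of 2.60e-05, 3.02e-05 and 2.04e-06. NGFR, the p75 neurotrophin receptor gene, fell from 31.0, 29.5 and 31.5 CPM to 12.4, 11.7 and 11.3 CPM (log2 fold change -1.36 ± 0.07 SE, edgeR adjusted p 5.07e-11). TNFRSF11A, the gene of the receptor RANK, fell from 2.27 ± 0.177 to 1.01 ± 0.0300 CPM (SD, n = 3 each; edgeR adjusted p 0.00123). Of the ligand genes, TNF and LTA had at most 2 counts in a library. TNFSF12, which encodes TWEAK, rose by 0.47 ± 0.15 (log2, SE; edgeR adjusted p 0.0178), and TNFSF9 was at 0.11 ± 0.20 (edgeR adjusted p 0.705). LTB was untested and had 2, 1 and 2 counts in control and 8, 7 and 10 in knockdown. The receptor gene EDA2R, also untested, went the other way, with 22, 15 and 8 counts in control and 5, 5 and 8 in knockdown. TNFSF12, TNFSF9, LTB and EDA2R were picked after their values were seen. No protein, phosphorylation or nuclear location of NF-kB was measured, and whether IL32 and the other genes respond to it was not tested.

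**Figure D5:**
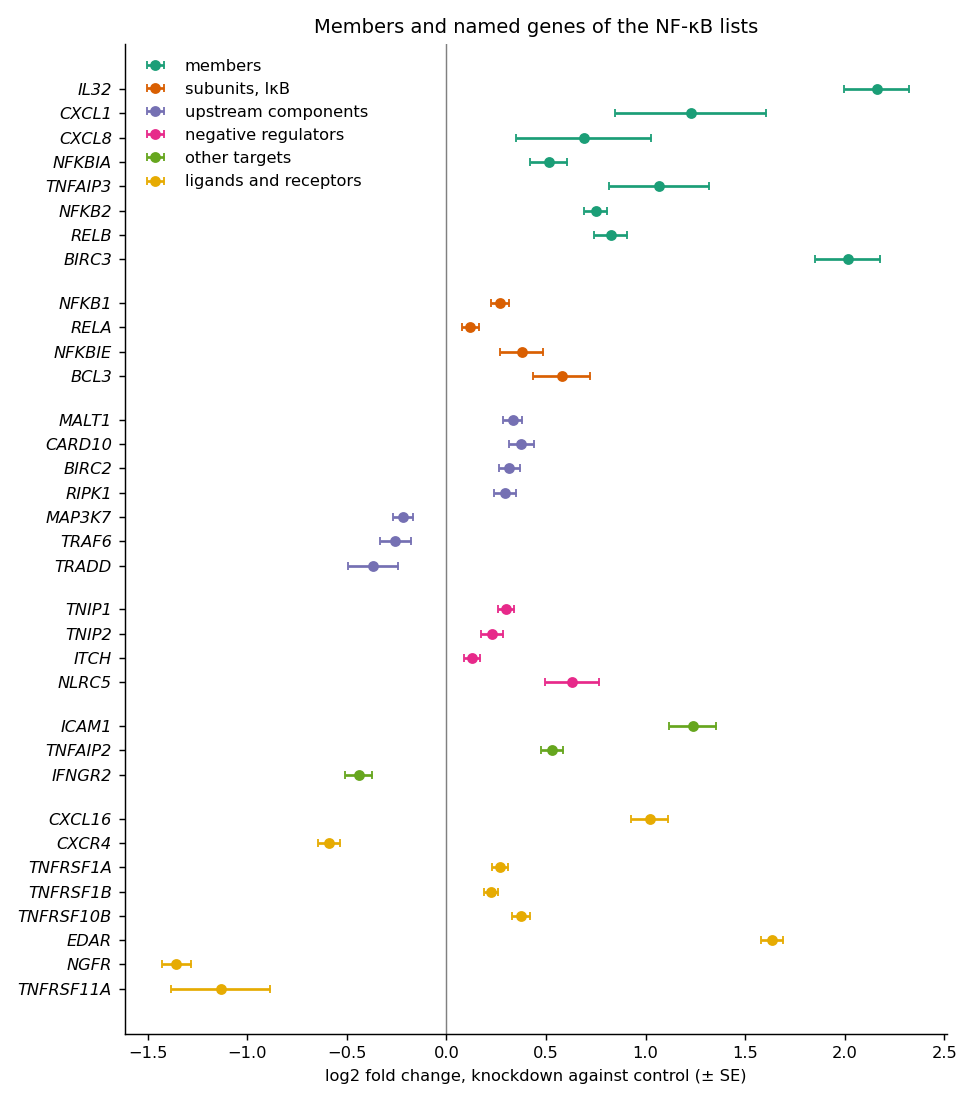
Log2 fold change ± SE (x axis, knockdown against control) of the 8 tested members and of named genes of the lists, coloured by role, 1 gene per line. Members lie between 0.51 and 2.16, the plotted list genes between -0.59 and 0.63 except that ICAM1, CXCL16, EDAR, NGFR and TNFRSF11A lie further out.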

How the data were processed

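Whole-number read counts per gene symbol were deposited by the authors, 1 column per library. STAR 2.6.1a, Salmon, DESeq2 and the build hg19 are named in the submitters' processing notes, with no role given; annotation and strand setting are not given in the sources used here. A second deposited table of normalized values was not used, and 0 per-sample columns of the count table were left out. The 6 libraries were grouped by title. Counts were tested with edgeR 4.0.16 (R 4.3.3): TMM factors, filterByExpr (minimum count 10), a quasi-likelihood F-test in a model of group alone, and Benjamini-Hochberg adjustment over all 13832 tested genes at 0.05. Each SE was obtained as the size of the log2 fold change over the root of its F statistic. CPM are scaled to library totals, and intervals or floors cover counting error only. An exact permutation test of 3 against 3 libraries cannot go below 0.1, so it was not used. Lists were counted, without a set test, and some genes stand in more than 1 list. Named were the members, IRS2, up to 4 genes per list and direction with the smallest p, the 5 profiles nearest IL32 (prior count 2 on log2 CPM) and 5 neighbours on each side. Others are said to be picked, and values under the alternative fits are given for named genes only. Members and lists were chosen with earlier results of these data known. Gene coordinates and canonical transcript lengths come from GENCODE on GRCh37, and promoter windows from RefSeq on GRCh38.p14. Alternatives were other scalings and filters, DESeq2 1.42.0, limma 3.58.1 voom, a replicate block, an adjusted p of 0.01, leaving out each library and, added after seeing the data, thinned counts. The fit was also run on simulated counts in which far fewer genes differed than were called here. That run is a check of the code and does not measure false calls in these data.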

Additional observations from a re-analysis of the deposited data

How the results depend on the processing

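Over the alternative fits, the log2 fold change ran from 2.05 to 2.40 for IL32, 1.82 to 2.14 for BIRC3 and 0.91 to 1.44 for CXCL1. The number of members past the threshold, from which nothing is read, was 5 of 5 when a mean of at least 50 counts was required. All genes had 4746 of 11581 called in that fit. That minimum leaves CXCL1, CXCL8 and TNFAIP3 untested. The number was 6 of 8 by the Wald test of DESeq2, beside 3890 of all 13832 tested genes. With 1 library left out it was 6 to 7 of 8, beside 4319 to 5256 of the 13937 to 14102 genes tested. With thinned counts it was 6 of 6, beside 5031 of 13638 genes, since CXCL1 and CXCL8 were then not tested. The count of called genes ran from 3714 (adjusted p under 0.01) to 5722 (no low-count filter), and from 4319 to 5256 with 1 library left out. Library size alone made 40.8% of the calls higher, against 50.2%. In the NF-kB target list, 2 genes were called lower, against 1, with upper-quartile factors, with library size alone, without the low-count filter and under the 50-count minimum, and 1 to 2 with 1 library left out. Of the 49 tested subunit, upstream and regulator genes, 17 were called higher and 3 lower. These are 34.7% and 6.12%, beside 19.3% and 19.2% of all tested genes. The Wald test of DESeq2 called 1 lower, and leaving out 1 library gave 1 to 3. MMP25, not called, ran from -0.379 to 0.0915 with 1 library left out and was above 0 without control replicate 1. The cause of these changes was not tested.

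After group means were removed, libraries that share a replicate number correlated at 0.04, -0.01 and -0.10, so the replicate numbers do not show a pairing. With the replicate number as a block, 4862 genes were called, IL32 had a log2 fold change of 2.16, and RELA lost its call (edgeR adjusted p 0.0604). Genes with few counts limit the set: CXCL1, CXCL2, CXCL8 and IL18 had at most 29 counts in a library.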

Other observations

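Genes around IL-18 and the inflammasome, the complex that activates it, were mostly at the edge of detection. Of 24 genes of this list, 6 could be tested. Of the 6, 2 were called higher, 33.3% beside 19.3% of all tested genes, and 4 were not called. NLRP1, the gene of an epithelial inflammasome sensor, rose from 3.63 ± 0.405 to 5.81 ± 0.678 CPM (n = 3 each, SD). Its edgeR adjusted p was 0.00174 at a log2 fold change of 0.70 ± 0.16 (SE). GSDMD, the gene of the pore protein gasdermin D, rose by 0.25 ± 0.07 (log2, SE; edgeR adjusted p 0.00437). CASP1, which encodes the protease that matures IL-18, had 0 counts in every library, as did IL1B, IL1RN and AIM2. CASP4, picked after its values were seen and untested, had 2, 2 and 1 counts in control and 5, 13 and 11 in knockdown. IL1R1, picked in the same way and untested, went the other way, with 4, 2 and 4 counts in control and 1, 0 and 1 in knockdown. Among the stromal markers, COL1A1 was at 15.3, 5.73 and 5.67 CPM in control and 4.26, 3.63 and 3.97 CPM in knockdown, with no overlap and a log2 fold change of -1.15 ± 0.28 (SE; edgeR adjusted p 0.00290).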
